A study of Mus musculus with 24 samples.

Results

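The comparison described here sets growing C2C12 myoblasts against C2C12 cultures on Day 5 of differentiation, the earliest and the latest time points of a mouse time course. C2C12 is an established mouse skeletal myoblast line, so all arrays come from a single line and no replicate is a separate animal. The Day -1 group held 3 arrays of cells at 50% confluency in high-glucose medium with 10% fetal bovine serum. The Day 5 group held 3 arrays of cells that had been kept in reduced serum (2% by the labels) for 5 days, with the medium renewed every 2 days. Neither group received any other agent. These 6 arrays were chosen by their labels out of 24, and of 45101 probe sets the 13239 with a mean intensity of at least 100 in either group were tested. Cell density, serum and time in culture all differ between the ends, so what each contributes cannot be told apart.

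Skeletal muscle fibres form when dividing myoblasts leave the cell cycle, switch on a cascade of muscle transcription factors and fuse into multinucleated myotubes. The myotube then fills with sarcomeres, the repeating units in which thick myosin filaments slide along thin actin filaments, and with membranes that release calcium when the cell is excited. C2C12 cells run through this programme in culture when growth factors are withdrawn, and are used as a model of the late steps of muscle formation. Many of the proteins involved exist in a widely expressed and a muscle form, encoded by related genes called paralogues.

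Myogenic bHLH factors bind E-boxes, MEF2 factors bind an AT-rich element and serum response factor binds the CArG box, whereas promoters of genes that peak in mitosis often carry a CCAAT box and a cell cycle genes homology region (CHR), and promoters of S phase genes an E2F site. RefSeq promoters (GRCm38.p6, the first listed start of each gene, 250 bases before to 50 bases after it) were found for 57 of the 76 contractile, junctional and calcium-handling genes that rose and for 82 of the 101 replication and mitosis genes that fell. The stretches below are the bases before the start of 2 genes of each kind, 5′ to 3′ on the gene's strand, shown because they hold the most different motifs of their kind. Capitals mark the matches. Klhl41 (chr2:69669870-69670119, plus strand) has CACCTG followed by CAGCTG and a MEF2 match, and Casq1 (chr1:172219896-172220145, minus strand) has both E-boxes. Smc2 (chr4:52438971-52439220, plus strand) and Cdc45 (chr16:18811973-18812222, minus strand) each have a CHR and a CCAAT match.
Klhl41: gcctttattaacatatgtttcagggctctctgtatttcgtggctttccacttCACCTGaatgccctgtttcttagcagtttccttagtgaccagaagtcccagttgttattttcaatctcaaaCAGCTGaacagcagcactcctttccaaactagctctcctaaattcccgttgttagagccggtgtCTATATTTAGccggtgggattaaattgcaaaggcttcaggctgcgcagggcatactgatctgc
Casq1: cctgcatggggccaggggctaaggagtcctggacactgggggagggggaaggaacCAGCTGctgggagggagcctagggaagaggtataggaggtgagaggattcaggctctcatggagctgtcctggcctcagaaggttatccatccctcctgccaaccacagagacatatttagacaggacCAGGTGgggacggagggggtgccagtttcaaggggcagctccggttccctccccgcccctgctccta
Smc2: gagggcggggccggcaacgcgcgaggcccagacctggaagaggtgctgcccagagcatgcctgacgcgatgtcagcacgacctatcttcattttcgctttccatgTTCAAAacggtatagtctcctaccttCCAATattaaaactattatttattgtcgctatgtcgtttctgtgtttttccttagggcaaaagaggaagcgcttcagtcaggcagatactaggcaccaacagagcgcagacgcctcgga
Cdc45: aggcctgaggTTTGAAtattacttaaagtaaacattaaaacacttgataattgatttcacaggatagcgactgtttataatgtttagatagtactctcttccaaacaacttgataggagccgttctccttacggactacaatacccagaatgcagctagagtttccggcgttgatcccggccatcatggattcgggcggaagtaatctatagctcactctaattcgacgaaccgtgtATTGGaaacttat
The E-box CAGCTG was in 43.9% of the promoters of the contractile genes and in 16.1% of all 27025 promoters of the table, and CACCTG in 26.3% and 20% (both searched on both strands). The MEF2 core was in 12.3% against 3.7%, and the CArG box in 7.02% against 1.57%. In the cell cycle genes the CCAAT box (CCAAT) was in 67.1% against 37.9%, the CHR (TTTGAA) in 47.6% against 18.1%, and either E2F site (TTTGGCGC or TTCCCGCC) in 15.9% against 2.75%. Among the 6271 promoters of genes tested the shares were 13.8% for CAGCTG, 14.8% for CACCTG, 2.85% for MEF2, 1.42% for the CArG box, 38.7% for CCAAT, 11.7% for the CHR and 5.33% for E2F. No E2F site matched among the 57 contractile promoters, and no MEF2 core matched among the 82 cell cycle promoters. The share with a CHR fell to 24.4% when the 50 bases after the start were left out, against 16.3% of all promoters and 10.2% of those of genes tested over the same window. The E2F share was 8.54% there, against 2.29% and 4.59%. A match is a run of letters and not evidence of binding, and these shares were not tested.

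The ends of the time course differed in most of the expressed genes. Of the 13239 probe sets tested, 62.3% passed, 3692 that rose (27.9%) and 4554 that fell (34.4%), as tested with limma at an adjusted p under 0.05. Of the 7657 genes they represent, 2354 rose (30.7%) and 2945 fell (38.5%), 69.2% in all, with a median log2 difference of -0.14. The 3 Day -1 and 3 Day 5 arrays did not overlap in 2314 of the genes that rose and 2860 of those that fell. By the log2 difference, changes of more than 4-fold were counted in 532 genes that rose and 515 that fell. These counts include genes with a mean under 100 in 1 group, for which the size of the change is not measured. A level of 100, the authors' own minimum, was crossed upward by 802 of the genes that rose and downward by 937 of those that fell. 60 genes went from under 100 to at least 1000 and 23 went from at least 1000 to under 100. Where a group mean lay under 100 the level there was taken as unmeasured, and the fold change is given as a lower bound against 100. A fold is a ratio of mean intensities, a log2 difference is Day 5 minus Day -1 from limma with its SE, an ID is the Entrez gene ID, and values after ± are SDs of 3 arrays. Genes that reached 100 in 1 group only had to differ to be tested at all, so counts or medians among the 5779 genes at 100 or more in both groups are given for several lists. In that set 61.6% passed, 26.9% by a rise and 34.7% by a fall. The counts of each gene list are to be read beside these shares and those of all genes tested. Each gene stands for its tested probe set with the largest absolute t, and its other probe sets can differ in size. The smallest rise among the probe sets was 7.10 for Chrng, 7.22 for Cox6a2, 5.52 for Igf1, 2.04 for Fbxo32, 1.32 for Tpm2 and 0.99 for Sgcb on the log2 scale. Actn1, Idh3a, Itgav and Ncl each had 1 probe set that did not pass, and Slc25a4 and Peg3 each passed on only 1 of their tested probe sets. Just above the minimum, 339 probe sets had a higher group mean between 100 and 110, and just below it 406 lay between 90 and 100.

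The arrays of each group lay close together. Pearson's r over the tested probe sets was 0.9823 to 0.9938 among the Day -1 arrays, 0.9732 to 0.9856 among the Day 5 arrays and 0.6112 to 0.6622 between the groups. The median intensity was 3.71 to 3.83 on Day -1 and 3.77 to 3.88 on Day 5, and the ratio of the 3′ to the 5′ Gapdh control probe set was 0.726 to 0.783 and 0.717 to 0.758. All 10 markers of myotubes rose, and their summed intensity went from between 1369 and 1835 to between 57966 and 67165. Of 10 markers of myoblasts 7 rose, among them Myod1, Myf5 and Des, while Cdh15 and Msc fell and Chodl stayed under 100. All 10 markers of cardiac muscle, all 9 measured markers of leukocytes and all 10 of endothelium stayed under 100 in both groups. Of 10 fibroblast markers, Pdgfra, Lum and Dcn rose and Cd34 was 229 and 261 (adjusted p = 0.448). The sum over the fibroblast markers went from between 302 and 320, most of it Cd34, to between 5529 and 6734, most of it Dcn, while Thy1, Dpt, Fap, Tcf21, Pi16 and Clec3b stayed under 100. In a culture measured as a whole, more cells of a type and more RNA per cell cannot be told apart.

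**Figure D1:**
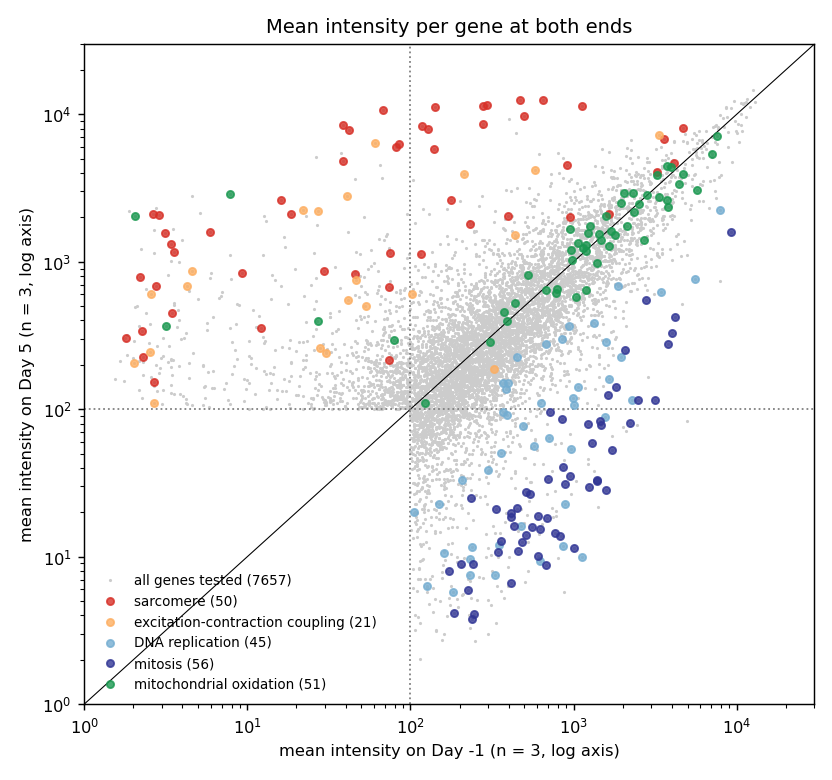
Mean intensity of each tested gene on Day -1 (horizontal, log axis) and Day 5 (vertical, log axis), n = 3 arrays each, with dotted lines at 100. The 50 sarcomere genes lie on or above the diagonal, the 45 DNA replication and 56 mitosis genes lie below it, and most of the 51 genes of mitochondrial oxidation lie along it.

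Among the listed regulators of myogenesis, Myog had the largest rise of those at 100 or more in both groups, and Mef2c and Eya4 rose from levels under 100. Myog, the bHLH factor that executes terminal differentiation, gave 485, 319 and 406 on the Day -1 arrays and 9609, 8917 and 9581 on the Day 5 arrays (ID 17928, log2 difference 4.56, SE 0.17, adjusted p = 1.23e-07). The groups were far apart, and the level on Day 5 was 23.2-fold that on Day -1. Mef2c, a MADS-box partner of the bHLH factors, gave 30.5, 43.6 and 29.8 on the Day -1 arrays and 1189, 735 and 821 on the Day 5 arrays (ID 17260, log2 difference 4.71, SE 0.22, adjusted p = 4.88e-07), a rise of at least 9.15-fold from a level under 100. Eya4, a transcriptional cofactor, rose from 5.42 ± 0.337 to 141 ± 19.4. Myod1 and Myf5, the factors that already mark the growing myoblast, changed far less. The values of Myod1 were 658, 657 and 727 on the Day -1 arrays and 1074, 969 and 1151 on the Day 5 arrays (ID 17927, log2 difference 0.64, SE 0.13, adjusted p = 0.00247), and those of Myf5 were 671, 583 and 636 on the Day -1 arrays and 924, 1181 and 1461 on the Day 5 arrays (ID 17877, log2 difference 0.89, SE 0.18, adjusted p = 0.00252). All 3 Day 5 arrays lay above all 3 Day -1 arrays for both, by 1.56-fold and 1.89-fold in the means. Of 28 regulators in the list, 16 reached 100 in a group, 11 of them rose and only Tcf3 fell, with a median log2 difference of 0.65 against -0.14 over all genes tested. Tcf3, which encodes the E-protein partners of MyoD, fell from 584 ± 59.8 to 278 ± 27.2 (SD, n = 3), and the related Tcf4 rose by 1.51 on the log2 scale. Pax7, the factor of quiescent satellite cells, and Myf6, the latest bHLH factor of muscle, stayed under 100 in both groups.

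Genes listed as restraining differentiation, or as tied to factors that do, moved both ways. Of 28 in the list 16 were tested, 8 rose (50%) and 4 fell (25%), where 30.7% and 38.5% of all genes tested did. Msc, a bHLH repressor of MyoD targets, gave 465, 504 and 565 on the Day -1 arrays and 23.1, 33.6 and 45.2 on the Day 5 arrays (ID 17681, log2 difference -3.96, SE 0.23, adjusted p = 1.75e-06), a fall of at least 5.11-fold to a level under 100. Sox9, a regulator of cartilage development, fell from 149 ± 15.7 to 57.6 ± 12.3. The ID proteins, which bind E-proteins and keep them off DNA, did not move together. Id3 rose from 319 ± 51.2 to 1151 ± 206 and Id1 rose from 419 ± 84.6 to 623 ± 112, whereas Id2 was 150 and 113 (adjusted p = 0.103). Hes6 is counted among the 8 but antagonises other HES repressors, and it rose from 203 ± 36.9 to 766 ± 124. The Notch target Hes1 fell by 1.63 and Notch1 fell by 0.70 on the log2 scale. Jag1, a Notch ligand, rose from 44.2 ± 5.36 to 232 ± 65.7.

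The genes of the fusion machinery rose from levels under 100. Mymk (myomaker), the membrane protein that starts the merging of myoblast membranes, gave 69.3, 43 and 88.2 on the Day -1 arrays and 3619, 3208 and 4261 on the Day 5 arrays (ID 66139, log2 difference 5.84, SE 0.25, adjusted p = 3.06e-07). Mymx (myomixer), the micropeptide that completes fusion with it, gave 42.4, 17.9 and 19.2 on the Day -1 arrays and 4758, 4561 and 6145 on the Day 5 arrays (ID 653016, log2 difference 7.71, SE 0.31, adjusted p = 2.13e-07). Neither gene's Day -1 arrays came near its Day 5 arrays. Tmem182, a membrane protein of muscle, rose from 45.5 ± 8.87 to 3655 ± 693, or at least 36.5-fold. Of 19 tested members of the whole fusion and adhesion list, Mymk and Mymx included, 10 rose and 7 fell. These are 52.6% and 36.8%, against 30.7% and 38.5% of all genes tested. Of the 12 at 100 or more in both groups 5 rose and 5 fell, with a median of -0.30. Cdh15 (M-cadherin), a cadherin of myoblasts, fell from 2093 ± 245 to 532 ± 155 (ID 12555, log2 difference -2.01, SE 0.21, adjusted p = 5.99e-05), and Jam2, an immunoglobulin-type adhesion molecule, fell from 210 ± 17.1 to 42.3 ± 2.93. The tetraspanin Cd9 fell by 1.05 and Cd81 rose by 0.42 on the log2 scale. The ferlins, calcium sensors of membrane fusion and repair, went opposite ways. Dysf (dysferlin) gave 2.33, 2.28 and 2.27 on the Day -1 arrays and 271, 182 and 170 on the Day 5 arrays, and Myof (myoferlin) gave 1205, 1721 and 1108 on the Day -1 arrays and 622, 565 and 491 on the Day 5 arrays, and neither gene's groups overlapped.

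Every tested gene of the sarcomere's thick and thin filaments rose except Tpm1 and Tpm3, whose probe sets disagreed, where 30.7% of all genes tested rose. In the thick filament 14 of 20 measured members reached 100 and all 14 rose, with a median log2 difference of 7.08. 10 of them had been under 100 on Day -1, and the other 4 (Myh3, Myl1, Mylpf and Myom2) had a median of 5.14. Myh3, the embryonic myosin heavy chain, gave 121, 160 and 144 on the Day -1 arrays and 12814, 11062 and 9872 on the Day 5 arrays (ID 17883, log2 difference 6.31, SE 0.16, adjusted p = 2.12e-08), the largest fold among genes measurable at both ends, 79.4-fold. The neonatal heavy chain Myh8 rose from 3.45 ± 0.256 to 450 ± 150, the adult fast form Myh1 rose from 38.8 ± 12 to 4839 ± 1803 and the slow form Myh7 rose from 2.63 ± 0.142 to 2117 ± 651. Myh1 varied most among them on Day 5, with 6891, 4117 and 3508 on the arrays. The adult fast forms Myh2 and Myh4 stayed under 100 in both groups. The light chains Mylpf and Myl4 rose from 294 ± 67.5 to 11546 ± 1032 and from 41.9 ± 20.3 to 7846 ± 1050. Mybph, a myosin-binding protein, reached 10671 from 67.6, a rise of at least 107-fold and the largest bound among genes that began under 100. Myosin heavy chain genes have closely similar sequences, and cross-hybridization between their probe sets was not tested.

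In the thin filament 20 of 21 measured members were tested and 20 rose on the probe set used, with a median of 5.68. 9 of them were at 100 or more on Day -1 and had a median of 4.75. Acta1, skeletal alpha-actin, gave 545, 362 and 504 on the Day -1 arrays and 13520, 11980 and 11861 on the Day 5 arrays (ID 11459, log2 difference 4.75, SE 0.17, adjusted p = 1.22e-07), and Actc1, the cardiac alpha-actin that embryonic skeletal muscle also uses, rose from 139 ± 17.3 to 5811 ± 542. Troponin genes of both slow and fast muscle rose. The slow forms Tnnc1, Tnni1 and Tnnt1 rose by 5.40, 6.15 and 7.43 on the log2 scale and the fast forms Tnnc2, Tnni2 and Tnnt3 by 6.24, 5.96 and 7.76. Tnnt2, the cardiac and embryonic troponin T, rose from 500 ± 110 to 9693 ± 527. Neb (nebulin), the ruler of the thin filament, gave 2.9, 3.73 and 2.8 on the Day -1 arrays and 1771, 1584 and 1370 on the Day 5 arrays (ID 17996, log2 difference 8.97, SE 0.16, adjusted p = 1.02e-08), and Lmod2, which nucleates actin filaments at their pointed ends, rose from 3.55 ± 0.0891 to 1158 ± 103. Klhl41, a kelch protein that stabilises nebulin and whose promoter is printed above, gave 81.6, 76.6 and 85.3 on the Day -1 arrays and 6938, 5668 and 5355 on the Day 5 arrays (ID 228003, log2 difference 6.20, SE 0.14, adjusted p = 1.40e-08). The smallest difference in the list was 0.93 on the log2 scale, for Tpm1, which both non-muscle and muscle cells use, and its other probe set fell by 1.09 (adjusted p = 0.000305), so its direction depends on the probe set. Tpm3, the tropomyosin that slow fibres and non-muscle cells share, had 2 probe sets that rose, by 3.26 and 5.25, and 3 that fell, by 0.95, 1.80 and 0.79, and its direction depends on the probe set too.

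At the Z-disc, the plate that anchors the thin filaments, 14 of 16 tested members rose and none fell. Ttn (titin), the giant spring that spans from Z-disc to M-line, gave 186, 196 and 150 on the Day -1 arrays and 2888, 2807 and 2238 on the Day 5 arrays (ID 22138, log2 difference 3.90, SE 0.16, adjusted p = 2.39e-07). Myoz2, which tethers calcineurin at the Z-disc, and Csrp3, a LIM protein of the Z-disc, rose from 2.88 ± 0.196 to 2062 ± 482 and from 3.42 ± 0.0263 to 1328 ± 296. Actn2, the muscle alpha-actinin, rose from 2.68 ± 0.404 to 152 ± 41.8, and Actn3, the actinin of fast fibres, rose from 918 ± 128 to 4512 ± 808. Ankrd1 and Des (desmin), already at 4662 and 1650 on Day -1, rose by only 0.79 and 0.35 on the log2 scale. Cryab and Fhl1 did not pass. Pdlim5, which links alpha-actinin to signalling kinases and is counted among the 14, had 2 probe sets that rose and 5 that fell, the largest differences being 2.95 and -1.45. By the probe set that stands for each gene, none of the filament and Z-disc lists held a gene lower on Day 5 at an unadjusted p under 0.05.

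**Figure D2:**
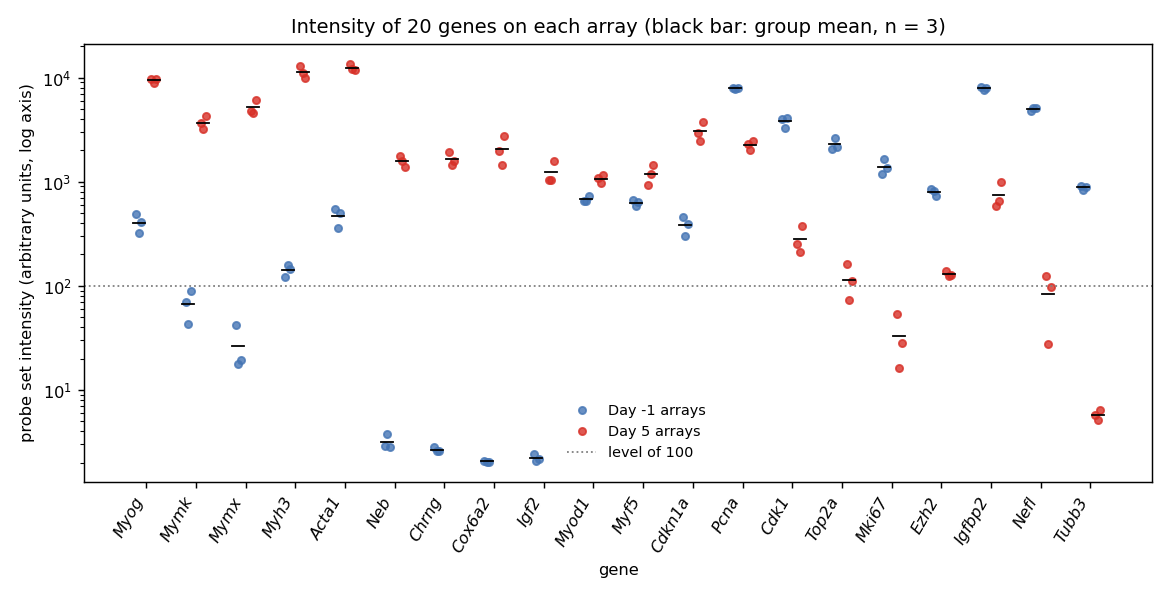
Intensity (arbitrary units, log axis) of 20 genes on each of the 3 Day -1 arrays (blue) and the 3 Day 5 arrays (red), with black bars at group means and a dotted line at 100. The groups do not overlap for any of the 20 genes, which were chosen for display. The same held for 2314 of the 2354 genes that rose and 2860 of the 2945 that fell. Mki67, Nefl and Top2a spread more widely on Day 5 than on Day -1.

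Genes that couple excitation to contraction rose with the sarcomere. Of 26 members 21 were tested, 20 rose and 1 fell, with a median of 4.21, and 15 of the 21 had been under 100 on Day -1. The 6 at 100 or more in both groups had a median of 2.15, with 5 that rose. Ryr1, the calcium release channel of the sarcoplasmic reticulum, gave 25.2, 31.1 and 24.8 on the Day -1 arrays and 2895, 2000 and 1778 on the Day 5 arrays (ID 20190, log2 difference 6.34, SE 0.20, adjusted p = 5.09e-08). Cacna1s, the voltage sensor that opens it, gave 4.43, 4.34 and 5 on the Day -1 arrays and 1053, 711 and 833 on the Day 5 arrays (ID 12292, log2 difference 7.54, SE 0.17, adjusted p = 1.37e-08). The calcium pump Atp2a1 (SERCA1) rose from 21.8 ± 5.25 to 2249 ± 306, and the calcium-storing calsequestrins Casq1 and Casq2 rose from 2.58 ± 0.17 to 603 ± 62.6 and from 60.4 ± 7.35 to 6411 ± 862. Cav3, the muscle caveolin of forming T-tubules, rose from 2.53 ± 0.0203 to 244 ± 71. Asph is the gene of the list called as falling (-0.80 on the log2 scale), but it also encodes junctin, and another of its probe sets rose by 1.14. The pump inhibitors Sln, Pln and Mrln and the calcium buffer Pvalb stayed under 100 in both groups.

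Of 10 tested genes of the neuromuscular junction, 8 rose and none fell. Chrng, the gamma subunit of the embryonic acetylcholine receptor, gave 2.85, 2.6 and 2.57 on the Day -1 arrays and 1907, 1444 and 1586 on the Day 5 arrays (ID 11449, log2 difference 9.26, SE 0.14, adjusted p = 1.02e-08), whereas Chrne, the subunit that replaces it in innervated muscle, stayed under 100. Musk, the receptor kinase that gathers acetylcholine receptors, rose from 118 ± 15.2 to 205 ± 63.1, and Ncam1, an adhesion molecule, rose from 168 ± 24.6 to 2297 ± 477, while its other probe sets rose by 0.68, 0.81 and 2.39 on the log2 scale. In the dystrophin complex, which links the cytoskeleton to the matrix, 7 of 10 tested members rose (70%) and 1 fell (10%). Over all genes tested the shares were 30.7% and 38.5%. Sgca and Sgcb (alpha- and beta-sarcoglycan) rose from 13.9 ± 5.02 to 562 ± 135 and from 187 ± 11.9 to 1174 ± 164. Utrn, the dystrophin paralogue, was 439 and 597 (adjusted p = 0.12), and the probe sets of Dmd stayed under 100. Only 4 of 14 measured genes of the excitable membrane were tested, and Cacna2d1, an accessory calcium channel subunit, rose most (from 196 ± 23.9 to 582 ± 45.7).

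Of 39 listed paralogue pairs both genes were tested in 21. In 10 pairs the first, non-muscle or widely expressed, gene fell and the muscle gene rose. Among these muscle genes, Ckm, Pygm, Actn2, Cav3 and Dysf were under 100 on Day -1. They could be tested only because Day 5 was higher. Pairs whose muscle gene stayed under 100 in both groups, such as Pgam2, Slc2a4 and Tmod4, dropped out. The count of pairs is therefore no measure of how often such pairs switch. Pfkm, Cfl2, Tpm2, Flnc and Adss1, with their partners, were at 100 or more in both groups. Ckb (brain-type creatine kinase) gave 331, 290 and 332 on the Day -1 arrays and 40.3, 44.8 and 46.2 on the Day 5 arrays and Ckm (muscle creatine kinase) gave 4.1, 3.74 and 7.02 on the Day -1 arrays and 626, 432 and 623 on the Day 5 arrays. The difference was -2.86 for Ckb and 6.86 for Ckm on the log2 scale, with no overlap for either. The phosphofructokinases of glycolysis did the same, as Pfkl fell from 877 ± 33.9 to 206 ± 29.1 and Pfkm rose from 274 ± 8.73 to 2793 ± 491. The glycogen phosphorylases did too, as Pygb fell from 442 ± 45.4 to 202 ± 42.8 and Pygm rose from 4.4 ± 1.47 to 205 ± 6.98. So did the filamins Flna (-1.10) and Flnc (2.38), the cofilins Cfl1 (-1.00) and Cfl2 (1.76), the tropomyosins Tpm4 (-0.89) and Tpm2 (3.34), the actinins Actn1 (-0.93) and Actn2 (5.80), and the caveolins Cav1 (-0.54) and Cav3 (6.55). The other glycolytic pairs did not have both genes tested. Of their second genes, Ldha fell by 1.26 on the log2 scale, Eno3 and Aldoa did not pass, and Pgam2 stayed under 100. In 3 pairs the first gene did not pass and the muscle gene rose. Cox6a2, the heart and muscle form of a cytochrome oxidase subunit, gave 2.09, 2.03 and 2.04 on the Day -1 arrays and 1959, 1437 and 2730 on the Day 5 arrays (ID 12862, log2 difference 9.91, SE 0.22, adjusted p = 1.37e-08), while the liver form Cox6a1 was 6238 and 5080 (adjusted p = 0.122). In 7 pairs both rose, 3 of them pairs of troponins. The pumps Atp2a2 and Atp2a1 were among the 7, but of the 4 tested probe sets of Atp2a2 1 fell by 0.59 and 2 rose by up to 2.99. Actb rose by 2.51 on a probe set with a low level and differed by -0.07 on the other. Myh9, paired with Myh3, rose by 1.24 on 1 probe set (adjusted p = 0.0392). Its other probe sets differed by -0.33, -0.24 and 0.28 and did not pass. Only Slc25a5 and Slc25a4, the adenine nucleotide carriers, both fell, and Slc25a4 (-0.38) passed on only 1 of its tested probe sets.

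**Figure D3:**
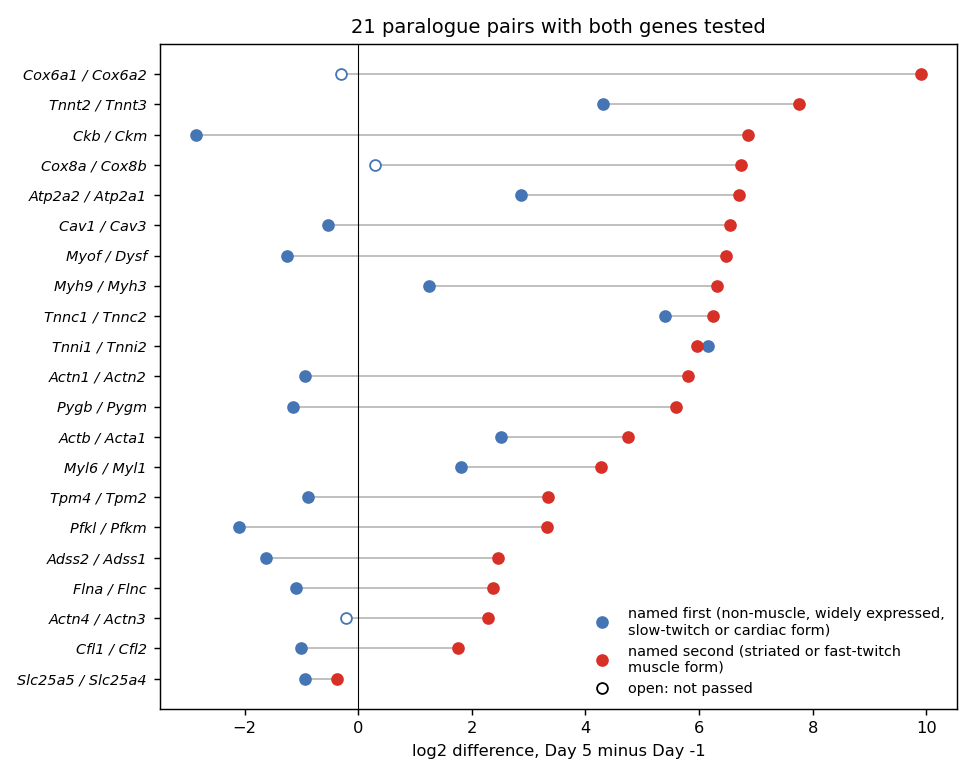
Log2 difference between Day 5 and Day -1 for both genes of the 21 paralogue pairs with both tested, ordered by the second gene. In 10 pairs the blue point lies left of 0 and the red point right of it, and in Slc25a5 and Slc25a4 both lie left.

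Every tested gene of DNA replication and of mitosis fell, where 38.5% of all genes tested fell, and none rose at an unadjusted p under 0.05. For DNA replication 45 of 47 measured members were tested and 45 fell, with a median log2 difference of -2.97, and 25 of them ended under 100. The 20 that stayed at 100 or more had a median of -2.13. Pcna, the sliding clamp of the replication fork, gave 7898, 7731 and 7966 on the Day -1 arrays and 2299, 2003 and 2482 on the Day 5 arrays (ID 18538, log2 difference -1.80, SE 0.13, adjusted p = 5.85e-06), the highest level left on Day 5 in this list. Rrm2, the ribonucleotide reductase subunit that supplies deoxynucleotides, gave 5196, 5551 and 5837 on the Day -1 arrays and 771, 709 and 796 on the Day 5 arrays, 7.29-fold lower on Day 5. The 6 genes of the MCM helicase fell, with log2 differences from -2.46 (Mcm6) to -6.35 (Mcm5). Mcm5 went from 864 ± 55.6 to 11.8 ± 7.03 and Mcm3 from 892 ± 95.7 to 22.9 ± 1.07, falls of at least 8.64-fold and at least 8.92-fold to levels under 100, and the probe sets nearest to 0 differed by -4.20 for Mcm5 and -3.06 for Mcm3 on the log2 scale. Dbf4, which activates the kinase that starts replication origins, fell from 1564 ± 69.3 to 88.5 ± 0.966, and Cdc45, a helicase cofactor whose promoter is printed above, fell by 4.37 on the log2 scale.

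The fall was deeper for mitosis, with 56 of 57 measured members tested, all 56 lower on Day 5 and a median of -4.83. 46 of them ended under 100, where the level is unmeasured, and the 10 at 100 or more in both groups had a median of -3.69. Cdk1, the kinase that drives entry into mitosis, gave 4005, 3244 and 4108 on the Day -1 arrays and 251, 210 and 374 on the Day 5 arrays (ID 12534, log2 difference -3.80, SE 0.22, adjusted p = 1.56e-06). Its activator gene Ccna2 fell from 1710 ± 97.6 to 52.7 ± 21, Cdc20, which targets cyclin B for destruction, fell from 2490 ± 122 to 116 ± 40.3, and Top2a, which untangles chromosomes, fell from 2278 ± 300 to 115 ± 44.2. Mki67, the gene of the Ki-67 antigen of cycling cells, gave 1181, 1636 and 1362 on the Day -1 arrays and 53.9, 16.1 and 28.3 on the Day 5 arrays. Ube2c, the E2 enzyme of the anaphase-promoting complex, gave 3522, 2604 and 3316 on the Day -1 arrays and 115, 40 and 192 on the Day 5 arrays. On Day 5 replicate 2 was the lowest of the 3 arrays for each of these 6 genes. Over the 56 genes the median difference from Day -1 was -4.53, -5.23 and -4.57 on Day 5 replicates 1, 2 and 3. The SD of the log2 values of the 3 Day 5 arrays had a median of 0.44 over mitosis genes, against 0.15 on Day -1 and against 0.21 over all genes tested on Day 5.

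The regulators of G1 divided by member. Of 18 tested genes 13 fell (72.2%) and 3 rose (16.7%), where 38.5% of all genes tested fell and 30.7% rose. Of the 10 at 100 or more in both groups 5 fell and 3 rose. Ccnd1 (cyclin D1) gave 1535, 1291 and 1456 on the Day -1 arrays and 218, 247 and 211 on the Day 5 arrays (ID 12443, log2 difference -2.66, SE 0.13, adjusted p = 7.02e-07), and Ccnd3 (cyclin D3), the D-type cyclin of differentiated muscle, gave 971, 871 and 992 on the Day -1 arrays and 2773, 2545 and 2928 on the Day 5 arrays (ID 12445, log2 difference 1.54, SE 0.13, adjusted p = 1.35e-05). Ccne2 fell from 455 ± 40.2 to 15 ± 1.94 and E2f1 fell from 121 ± 0.791 to 22.2 ± 7. Myc, a growth-promoting factor, was not among those that fell and rose from 432 ± 10.5 to 569 ± 45.6 (adjusted p = 0.0221). Among 7 tested inhibitors of cyclin-dependent kinases and pocket proteins 4 rose (57.1%) and 3 fell (42.9%). Cdkn1a (p21), which arrests myoblasts, gave 457, 298 and 395 on the Day -1 arrays and 2939, 2472 and 3743 on the Day 5 arrays (ID 12575, log2 difference 2.99, SE 0.21, adjusted p = 4.74e-06). Rb1, the pocket protein of permanent arrest, rose from 502 ± 80.8 to 1856 ± 128, and its relative Rbl1 (p107), which accompanies S phase, fell from 467 ± 85.7 to 56.5 ± 12. The INK4 gene Cdkn2d fell from 431 ± 62.7 to 185 ± 28.9, and Cdkn1c stayed under 100.

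Chromatin factors tied to replication fell with it. Of 16 tested 14 fell and 1 rose. Uhrf1, which reads hemimethylated DNA at the fork, gave 1892, 2368 and 2016 on the Day -1 arrays and 82, 56.8 and 73.3 on the Day 5 arrays (ID 18140, log2 difference -4.90, SE 0.17, adjusted p = 8.84e-08), and its partner Dnmt1, the maintenance methyltransferase, fell from 824 ± 115 to 159 ± 15.7. The high-mobility-group genes Hmga2 and Hmgb2 fell from 1181 ± 68.3 to 139 ± 3.61 and from 1714 ± 124 to 262 ± 37. The H3K27 methyltransferases of Polycomb went opposite ways. Ezh2 gave 846, 818 and 721 on the Day -1 arrays and 138, 125 and 128 on the Day 5 arrays, and Ezh1 gave 67, 121 and 84.3 on the Day -1 arrays and 422, 364 and 268 on the Day 5 arrays, with no overlap of the groups in either. Of 37 tested genes of ribosome biogenesis 26 fell, 2 rose and the median was -0.73. Npm1 (nucleophosmin) fell from 8015 ± 643 to 3884 ± 95.2, Ncl (nucleolin) fell from 415 ± 36.6 to 255 ± 24.7 and Dkc1, which modifies ribosomal RNA, fell from 741 ± 87.4 to 220 ± 23.7. Rrp12 and Bysl rose by 1.11 and 0.47 on the log2 scale, Bysl with a second probe set at -0.22.

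Genes of energy metabolism did not move in a single direction. Of 19 tested genes of glycolysis, glycogen and glucose transport 12 fell and 4 rose, with a median of -1.15. Slc2a1 (GLUT1), the glucose transporter of growing cells, gave 1529, 1534 and 1503 on the Day -1 arrays and 414, 374 and 342 on the Day 5 arrays (ID 20525, log2 difference -2.02, SE 0.13, adjusted p = 2.56e-06). The insulin-responsive Slc2a4 (GLUT4) stayed under 100. Ldha fell from 6203 ± 565 to 2591 ± 235 and Pgam1 fell from 6783 ± 278 to 2311 ± 214, while the 4 that rose were Pygm, Pfkm, Gys1 and Hk2, with Hk2 from 1193 ± 143 to 1945 ± 500 (adjusted p = 0.0142). Of 51 tested genes of mitochondrial oxidation 28 did not pass, 12 rose and 11 fell, with a median of -0.01. The largest rises among them were genes of muscle forms and supply. Mb (myoglobin), the oxygen store of muscle, gave 6.72, 10.4 and 6.36 on the Day -1 arrays and 2993, 2334 and 3262 on the Day 5 arrays (ID 17189, log2 difference 8.54, SE 0.22, adjusted p = 2.12e-08), and Fabp3, the fatty acid carrier of muscle and heart, rose from 26.9 ± 13 to 394 ± 146. Pdk4, which slows glucose oxidation, rose from 78.8 ± 14.5 to 294 ± 94.1, and Idh3a and Idh2 of the citrate cycle fell by 0.96 and 0.88 on the log2 scale. Ppargc1a, the coactivator of mitochondrial biogenesis, stayed under 100. Of 19 tested genes of cholesterol and fatty acid synthesis 18 fell, with a median of -1.47. Fdps fell from 2457 ± 283 to 649 ± 46.4 and Fasn fell from 939 ± 201 to 290 ± 68.1, and Dhcr7 alone rose (from 110 ± 9.24 to 316 ± 54.2).

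Of 41 tested genes of the non-muscle cytoskeleton 23 fell and 10 rose, where 38.5% of all genes tested fell and 30.7% rose. Tubb3, the beta-tubulin best known from neurons, gave 905, 834 and 898 on the Day -1 arrays and 5.73, 5.14 and 6.39 on the Day 5 arrays (ID 22152, log2 difference -7.26, SE 0.13, adjusted p = 1.02e-08). Tubb3 ended under 100, where the size of a fall is not measured. By the log2 difference its fall was the largest in this list. Nefl and Nefm, neurofilament genes named by rank and not members of it, gave 4759, 5128 and 5079 on the Day -1 arrays and 123, 27.4 and 97.7 on the Day 5 arrays for Nefl and 1424, 1440 and 1392 on the Day -1 arrays and 30.8, 10.8 and 23.4 on the Day 5 arrays for Nefm. Nefl was among the brighter genes on Day -1 and was under 100 in the mean on Day 5, with 1 of the 3 arrays above 100. Stmn1 (stathmin), which destabilises microtubules, fell from 4641 ± 558 to 520 ± 169, and Lmnb1 (lamin B1) fell from 684 ± 56.7 to 79.3 ± 7.61. Vim (vimentin) fell by 0.43 on the log2 scale and Nes (nestin) fell by 0.48, with 2 other Nes probe sets not passing. Smooth muscle-type genes were among the 10 that rose. Acta2 went from 2.89 ± 0.365 to 177 ± 18.3 on a dim probe set and from 1992 to 7952 on a bright one (log2 differences 5.93 and 2.02). Tagln went from 59.4 ± 16.9 to 979 ± 243. Of 10 smooth muscle markers 6 were tested, of which Acta2, Tagln, Synpo2 and Mylk rose and none fell. Myh11, Myocd, Cnn1 and Lmod1 stayed under 100. The sum over the 10 markers went from between 1642 and 1971 to between 3599 and 4290.

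Of 48 tested genes of the extracellular matrix 29 rose and 14 fell, with a median of 0.95. Dcn (decorin), a small proteoglycan that binds collagen and TGF-beta, gave 48.3, 30.8 and 33.8 on the Day -1 arrays and 5314, 5938 and 5082 on the Day 5 arrays (ID 13179, log2 difference 7.20, SE 0.18, adjusted p = 2.18e-08), and Ogn (osteoglycin), a relative outside the list named by rank, gave 269, 261 and 290 on the Day -1 arrays and 8468, 8469 and 7677 on the Day 5 arrays (ID 18295, log2 difference 4.91, SE 0.12, adjusted p = 2.09e-08). Col3a1 rose from 894 ± 117 to 2925 ± 833 and Thbs1 (thrombospondin 1) rose from 799 ± 112 to 5442 ± 1330. Col1a1 was 143 and 124 (adjusted p = 0.456) and Fn1 (fibronectin) 214 and 290 (adjusted p = 0.285), and neither passed. Among those that fell, Tnc (tenascin C) went from 379 ± 50 to 51.4 ± 7.53. Dcn and Lum are also fibroblast markers, and the part of other cells in the matrix values was not tested. Of 8 tested genes in the integrin list, which holds 7 integrin subunits and a partner protein, 6 rose (75%) and 1 fell (12.5%). Over all genes tested the shares were 30.7% and 38.5%. Itga7, the laminin receptor of muscle, rose from 1767 ± 242 to 4097 ± 557, and Itgb1bp2 (melusin), a muscle partner of beta1-integrin, gave 2.44, 2.34 and 2.4 on the Day -1 arrays and 523, 318 and 503 on the Day 5 arrays. Itgav was the member that fell (-0.66 on the log2 scale), with overlapping groups.

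**Figure D4:**
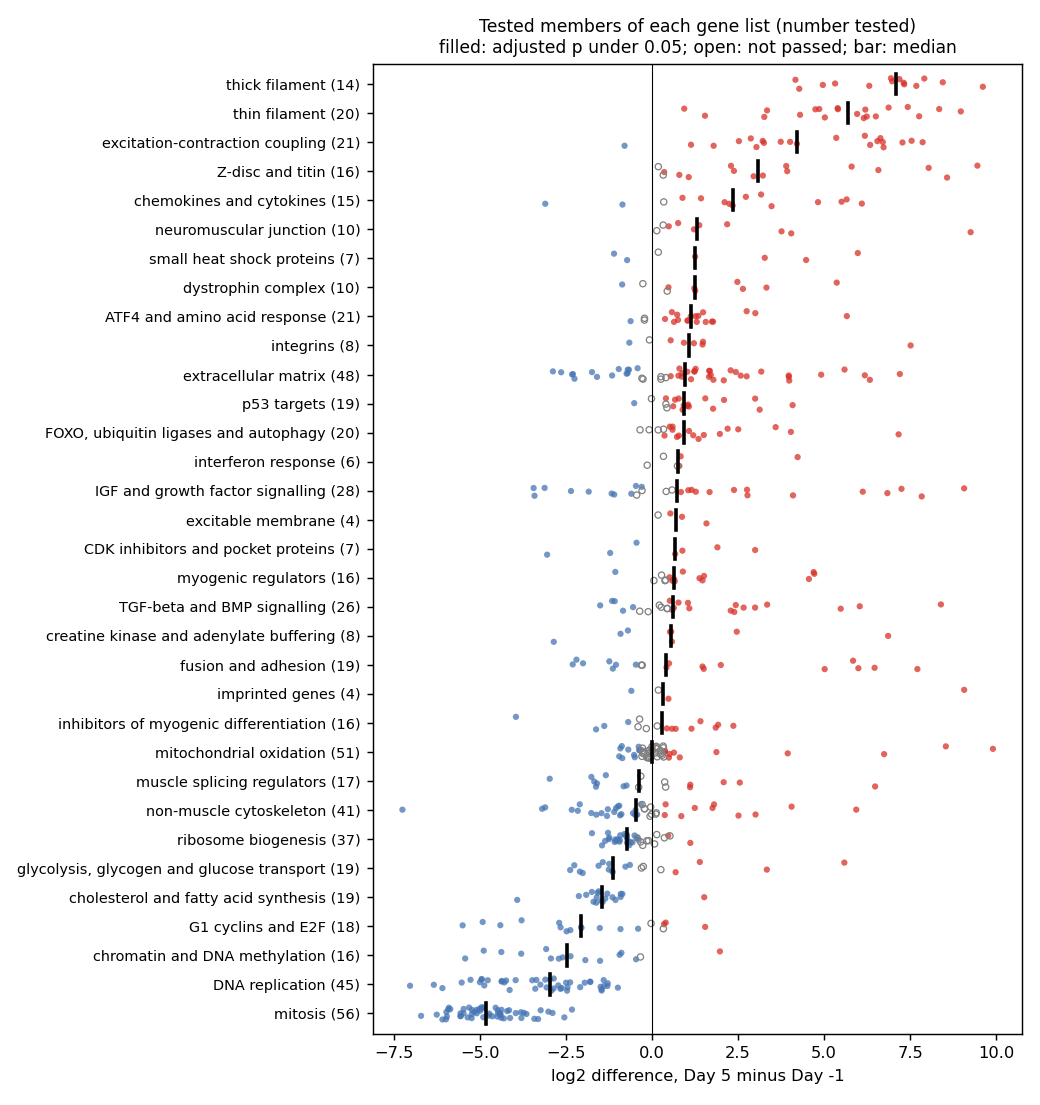
Log2 difference between Day 5 and Day -1 for every tested member of the 33 gene lists, ordered by median (black bars), with filled points for genes that passed and open points for those that did not. The filament lists lie at the right with medians of 7.08 and 5.68, mitosis lies at the left with -4.83, and mitochondrial oxidation has a median of -0.01 with a few far points at the right.

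Secreted factors and their binding proteins included some of the largest changes. Igf2, a growth factor that differentiating myoblasts make for themselves, gave 2.44, 2.08 and 2.19 on the Day -1 arrays and 1047, 1040 and 1591 on the Day 5 arrays (ID 16002, log2 difference 9.07, SE 0.19, adjusted p = 1.12e-08). Igf1 gave 2.06, 2.04 and 2.04 on the Day -1 arrays and 366, 722 and 387 on the Day 5 arrays (ID 16000, log2 difference 7.84, SE 0.25, adjusted p = 5.04e-08). Both began at very low intensity and lay above 100 on every Day 5 array. Igfbp2, a binding protein of these factors, went the other way, with 8144, 7652 and 7915 on the Day -1 arrays and 590, 652 and 992 on the Day 5 arrays (ID 16008, log2 difference -3.45, SE 0.20, adjusted p = 1.48e-06), 10.6-fold lower on Day 5. Igfbp5 was 485 and 394 (adjusted p = 0.071). Spry1, a brake on FGF signalling, rose from 2.53 ± 0.665 to 379 ± 51.8, and Dusp4, a phosphatase of MAP kinases, fell from 1734 ± 223 to 337 ± 27.5. Over the 28 tested genes of IGF and growth factor signalling 14 rose (50%) and 10 fell (35.7%), where 30.7% of all genes tested rose and 38.5% fell. Of the 14 at 100 or more in both groups only 5 rose and 6 fell, with a median of -0.30. Of 26 tested genes of TGF-beta and BMP signalling 15 rose (57.7%) and 5 fell (19.2%). Of the 16 at 100 or more in both groups 7 rose and 3 fell. Fst (follistatin), which binds activin and myostatin, gave 3.32, 2.47 and 2.91 on the Day -1 arrays and 211, 177 and 180 on the Day 5 arrays (ID 14313, log2 difference 6.03, SE 0.15, adjusted p = 2.12e-08), and Inhba, a subunit of activin, rose from 35.7 ± 8.14 to 171 ± 6.27. Bmp4 gave 5.39, 3.27 and 3.29 on the Day -1 arrays and 986, 2182 and 1027 on the Day 5 arrays (ID 12159, log2 difference 8.40, SE 0.33, adjusted p = 1.70e-07), with all Day 5 arrays far above Day -1 but an SD of 679 around a mean of 1398. Of 15 tested chemokines, cytokines and their receptors 12 rose (80%) and 2 fell (13.3%), against 30.7% and 38.5% of all genes tested. Of the 8 at 100 or more in both groups 5 rose and 2 fell. Cxcl12, the chemokine that guides muscle precursors, gave 70.6, 58 and 67.4 on the Day -1 arrays and 4643, 5730 and 3324 on the Day 5 arrays (ID 20315, log2 difference 6.10, SE 0.20, adjusted p = 6.97e-08), while Ackr3, its scavenging receptor, fell from 2084 ± 178 to 245 ± 51.5. Ptn (pleiotrophin), a heparin-binding growth factor, rose from 14.8 ± 2.84 to 747 ± 150. Of 6 tested interferon response genes 3 rose (50%) and none fell. Among 4 tested imprinted genes Igf2 and Sgce rose (50%) and Peg3 fell (25%), the latter on only 1 of its tested probe sets.

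Lists of stress responses had smaller medians than the filament lists. Of 21 tested targets of ATF4 and of amino acid shortage 18 rose and 1 fell, with a median of 1.12. Asns (asparagine synthetase) rose from 2135 ± 190 to 5954 ± 448 and Trib3 from 111 ± 21.8 to 880 ± 107, and Ddit4 alone fell (-0.63). Of 19 tested p53 targets 15 rose and 1 fell. Gadd45a, a sensor of stress and DNA damage, gave 480, 426 and 417 on the Day -1 arrays and 7413, 7219 and 7747 on the Day 5 arrays (ID 13197, log2 difference 4.08, SE 0.12, adjusted p = 4.23e-08), the largest change in that list, and Trp53inp1 rose from 107 ± 17.1 to 937 ± 169. Cdkn1a belongs to this list too. Of 20 tested genes of the FOXO, ubiquitin ligase and autophagy list 16 rose and none fell. Trim63 (MuRF1) and Fbxo32 (atrogin-1), the ligases of muscle atrophy, rose from 4.38 ± 0.183 to 629 ± 43.6 and from 48.5 ± 10.3 to 577 ± 36.8. Of the 7 small heat shock proteins, Hspb7, Hspb3 and Hspb2 of muscle rose from 2.56 ± 0.249 to 166 ± 51.5, from 6.1 ± 0.0664 to 140 ± 40.1 and from 35.8 ± 9.39 to 348 ± 106, and Hspb1 and Hspb6 fell by 0.73 and 1.11. Of 17 tested splicing regulators 5 rose and 8 fell, shares near those of all genes tested (30.7% and 38.5%). Rbm24, which promotes muscle exons, gave 7.35, 6.65 and 7.07 on the Day -1 arrays and 658, 576 and 651 on the Day 5 arrays (ID 666794, log2 difference 6.48, SE 0.12, adjusted p = 1.02e-08), and Ptbp1, which represses them, gave 2239, 2400 and 2235 on the Day -1 arrays and 733, 724 and 684 on the Day 5 arrays (ID 19205, log2 difference -1.68, SE 0.12, adjusted p = 4.96e-06).

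The other time points show how the ends are joined, as a description with no test, since they share the end arrays. On Day 0, in confluent cultures still in full serum, the median difference of the thin filament list from Day -1 was 3.41, and it was 2.90 at 6 hours and 5.34 on Day 2 and 5.68 on Day 5. The thick filament list went from 3.04 on Day 0 through 2.34 at 6 hours to 5.89 on Day 2 and 7.08 on Day 5. The median of the mitosis genes was -1.05 on Day 0 and -0.39 at 6 hours. It went from -2.30 on Day 2 through -3.34 and -4.01 to -4.83 on Day 5. As 46 of the 56 genes ended under 100, where the level is unmeasured, the last steps of this median are uncertain. Chemokines and cytokines went from 1.62 on Day 4 to 2.34 on Day 5. Targets of ATF4 stood at 1.12 on Day 0, at -0.83 after 6 hours of reduced serum and at 1.12 on Day 5. Only 55 of the 7657 genes had a mean at some time between at least 2-fold above both ends, 38 of them on Day 0, and only 37 had one at least 2-fold below both ends. Sema3c, a guidance ligand, was 176 on Day -1, 779 on Day 0 and 117 on Day 5. Ndrg1, a gene of hypoxia and growth arrest, was 307, 1027 and 245 at those times. Adamts4, a matrix protease, was 174 on Day -1, 545 on Day 2 and 135 on Day 5. Trib3 was 111 on Day -1, 8.57 after 6 hours and 880 on Day 5, and Chac1, which degrades glutathione, was 413, 45.8 and 849. Dkk2, a secreted WNT antagonist, was 254 on Day -1, 13.9 on Day 2 and 582 on Day 5, where its arrays were 428, 1000 and 317.

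**Figure D5:**
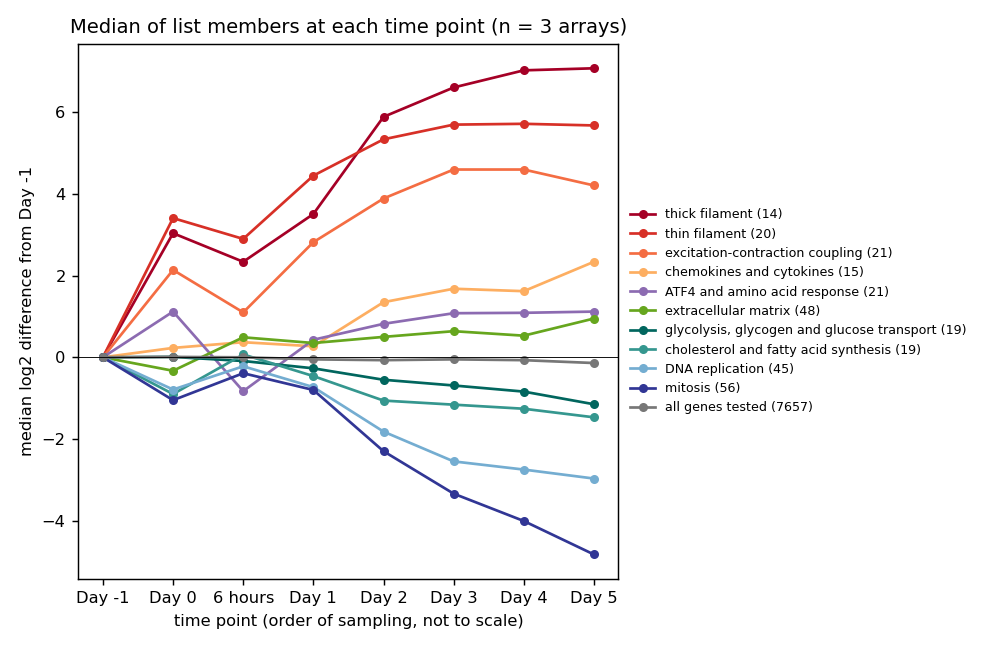
Median log2 difference from Day -1 of the tested members of 10 gene lists and of all genes tested at the 8 time points, in order of sampling, n = 3 arrays each. The filament lists stand at 3.04 and 3.41 on Day 0, lower at 6 hours (2.34 and 2.90) and at 7.08 and 5.68 on Day 5, replication and mitosis stand nearer 0 at 6 hours (-0.22 and -0.39) than on Day 0 (-0.79 and -1.05) and reach -2.97 and -4.83, the ATF4 list dips to -0.83 at 6 hours, and all genes together stay between -0.14 and 0.01.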

How the data were processed

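RNA of 24 samples of C2C12 cells was hybridized to Affymetrix Mouse Genome 430 2.0 arrays, 3 for each of 8 time points, and the 3 arrays of Day -1 were compared with the 3 of Day 5. The deposited values are linear intensities, which the authors made with GC-RMA, a background correction and summary that uses probe sequence, followed by a return from log2 and a scaling that gives every array the same 2% trimmed mean, 150. The submitters' notes name GCRMA and MAS5, without versions. This scaling fixes the average of each array, so values are relative to that average and a change in total RNA per cell is not seen, and the background step pushes unexpressed probe sets to a few units. The labels give 2% serum for differentiation and the methods 3%. Depth has no counterpart on arrays, and 3 arrays a group limit the precision.

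Groups came from the sample labels. Nothing says whether replicates were separate cultures, so p-values measure the spread between these samples, which may be technical. Differences of log2 intensity over the 6 arrays were tested by limma's moderated statistic (version 3.58.1, R 4.3.3; p adjusted by the method of Benjamini and Hochberg over 13239 probe sets, threshold 0.05), without the 64 control probe sets. Each gene stands for its tested probe set with the largest absolute t. Of all probe sets, 34945 have 1 gene in the platform annotation, 932 have several and 9224 none listed here. Symbols were updated through Entrez IDs to a RefSeq table (GRCm38.p6), which held 34741 of the 34945. Of 3059 genes with more than 1 tested probe set, 125 had probe sets passing in opposite directions, among the listed genes Tpm1, Tpm3, Pdlim5, Asph, Atp2a2, Slc6a8, Spred1 and Celf1.

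Genes were named where they ranked among the 12 largest non-overlapping rises or falls with both means at 100 or more, or the 12 largest bounds with 1 mean under 100, and where they were key members, the most significant members of a list, paralogues or the clearest peaks and dips between the ends, and where they were cell type markers. Cd81, Cd9, Cdc45, Cryab, Fhl1, Gys1, Hes1, Mcm6, Notch1, Pdlim5, Smc2, Tcf4, Tnnt1, Tpm1, Tpm3 and the histone genes other than H1f2 were named after their values were seen. The members and lists were chosen with earlier results of these data known. Alternatives were all 24 arrays in a single fit, the replicate number as a block, a level of 200, no level filter, quantile normalization, a floor of 50, linear values, an intensity trend, a test against a change of 2-fold, the probe set with the highest level and leaving out each array. Replicate numbers were in the labels, but same-numbered arrays did not deviate together (r = -0.566, 0.413 and 0.325).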

Additional observations from a re-analysis of the deposited data

Results flagged for a closer look

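Genes under 100 at both ends were not tested, and of 10537 such genes 251 had a mean of at least 100 at a time point between. The 6 highest are listed here as signals outside the comparison. Avil (advillin), an actin-binding protein, reached 341 on Day 0 (318 to 369 over the 3 arrays), from 19.3 on Day -1 and 58.8 on Day 5. Ppp2r2b, a regulatory subunit of protein phosphatase 2A, reached 338 on Day 0 (295 to 393), from 60.5 and 8.14 at the ends. Cxcl13, a chemokine, reached 318 on Day 2 (284 to 349), from 24.9 and 70.4. Ablim3, an actin-binding LIM protein, reached 308 on Day 3 (259 to 367), from 4.24 and 91.4. Slc2a6, a hexose transporter, reached 252 on Day 2 (245 to 264), from 4.07 and 63.2. Glipr1 reached 225 after 6 hours of reduced serum (178 to 278), from 47.3 and 4.45. In each of the 6 all 3 arrays of the highest time point lay above all arrays of both ends. Picking genes by a high mean between low ends makes this likely, so it adds no support. None of these differences was tested.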

How the results depend on the processing

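The main counts, 3692 probe sets higher and 4554 lower on Day 5, kept within 1.5 times under every alternative but the test against a 2-fold change, which left 1115 and 1180 probe sets and 765 and 805 genes. Leaving out each array in turn gave 3124 to 4000 probe sets higher and 3742 to 4514 lower. With the replicate number as a block, 3617 probe sets were higher and 4511 lower. Against a 2-fold change the lists kept fewer members: 4 of the neuromuscular junction, 1 of the excitable membrane, 4 myogenic regulators, 4 inhibitors of differentiation, 2 CDK inhibitors and pocket proteins, 2 of creatine and adenylate buffering, 5 of mitochondrial oxidation, 18 of the matrix, 1 integrin, 4 of the dystrophin complex, 9 of TGF-beta and BMP signalling, 1 imprinted gene, 6 of FOXO and autophagy, 7 of ATF4, 1 of interferon and 6 p53 targets rose, and 2 of ribosome biogenesis, 6 of glycolysis, 9 of the non-muscle cytoskeleton, 5 splicing regulators and 10 of lipid synthesis fell. Such a test asks for more than a difference from 0.

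Without the level filter 2 CDK inhibitors and pocket proteins rose and 3 fell, 14 genes of mitochondrial oxidation rose and 15 fell, and 6 interferon genes rose. With all 24 arrays 5 interferon genes rose, and at a level of 200 only 2 small heat shock proteins did. Leaving out 1 array gave 3 to 5 risen genes of creatine and adenylate buffering, fewest without Day 5 replicate 2, and 1 to 2 imprinted genes, the lower number without Day -1 replicate 2 or 3 or Day 5 replicate 2. The cause of these shifts was not tested.

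Directions turned for 15 of the named genes. For Actb, Asph, Atp2a2, Bysl, H2az2, Nes, Sema3c, Tpm1 and Tpm3, another probe set of the gene came to stand for it, and the other 6 had not passed the test. Tpm1 differed by -1.09 with the replicate block, quantile normalization and the 2-fold test, by -1471 on the linear scale, and by between -1.22 and 0.97 when 1 array was left out. Asph differed by 1.14 with the block and the 2-fold test, 4.70 without the filter and 4.71 after quantile normalization, and by between -0.89 and 4.84 with 1 array left out. On the probe set with the highest level the differences were -0.07 for Actb, -0.59 for Atp2a2, -0.22 for Bysl, -0.10 for H2az2, 0.16 for Id2, 0.26 for Igfbp5, 0.19 for Ndrg1, 0.06 for Nes, 0.16 for Sema3c and -0.95 for Tpm3. Tpm3 differed by -3024 on the linear scale. At a level of 200 the differences were -0.22 for Bysl, -0.10 for H2az2, 0.16 for Id2 and 0.16 for Sema3c, Bysl was -0.22 in the 2-fold test, Igfbp5 was 0.26 with 24 arrays and with a trend, and Utrn was -0.54 without the filter. With 1 array left out, Cd34 lay between -0.01 and 0.33, Col1a1 between -0.53 and 0.13, Id2 between -0.56 and 0.28, Igfbp5 between -0.34 and 0.38 and Ndrg1 between -0.41 and 0.30.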

Other observations

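Genes outside the functional lists stood among the highest ranked changes or were markers of other cell types. H1f2, a linker histone, gave 96.6, 117 and 100 on the Day -1 arrays and 3204, 3964 and 3615 on the Day 5 arrays (ID 50708, log2 difference 5.10, SE 0.14, adjusted p = 2.92e-08), and both of its tested probe sets rose. Of the 7 tested genes with H1 or H2A symbols, H2ac19 also rose (from 15.3 to 134), as did H2aw and H2az2, while H2ax, a variant phosphorylated at DNA breaks, fell from 936 to 156 and H2az1 fell from 4372 to 1547. Blnk, an adaptor protein best known from B cells, gave 1349, 1389 and 1486 on the Day -1 arrays and 106, 97.1 and 113 on the Day 5 arrays (ID 17060, log2 difference -3.74, SE 0.13, adjusted p = 7.04e-08). Fabp5, a fatty acid carrier of epidermis and other tissues, fell from 2861 ± 369 to 166 ± 92.8, and Dynap fell from 1732 ± 244 to 65.5 ± 10.3. Lpl (lipoprotein lipase), which releases fatty acids for uptake by muscle and fat, rose from 95.4 ± 2.12 to 1061 ± 237. Pparg, the only other adipocyte marker tested, fell, and the adipocyte markers Adipoq, Fabp4, Retn, Cidec and Lep stayed under 100. Phex, an endopeptidase of bone, gave 50.6, 54.3 and 50.9 on the Day -1 arrays and 537, 1295 and 536 on the Day 5 arrays. All Day 5 arrays lay above all Day -1 arrays but had a wide spread among them. Sox9, the only other tested marker of bone and cartilage, fell, and the bone markers Ibsp, Sp7 and Alpl stayed under 100.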
